A study of Rattus norvegicus with 12 samples.

Results

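The lysyl oxidases and elastic fibre genes described here are 10 genes chosen by name: the lysyl oxidases Lox, Loxl1, Loxl2 and Loxl3, the elastin gene Eln, the fibrillin Fbn1, the fibulins Fbln1 and Fbln5, and the microfibril-associated genes Mfap4 and Mfap5. These genes were chosen with earlier results of these data known. Each matched 1 probe set of a rat gene array through the probe-to-gene table, and all 10 were among the 10025 genes tested. Cultures of neonatal Wistar rat ventricular cardiomyocytes had been given adenovirus carrying mef2Cγ+ (γ+ cultures), mef2Cγ- (γ- cultures) or mef2Cγ+23/24 (γ+23/24 cultures), or were left untreated (control), with 3 arrays per group. MEF2C is a transcription factor of muscle genes. Its γ segment is included or left out by alternative splicing, and the 23/24 variant is not defined in the labels. All cells grew on type I collagen, for 44 h with serum and then for 24 h without it. The labels give neither the promoter and dose of the viruses nor when before harvest the cells were infected. The arrays include no group given empty virus.

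Lysyl oxidases are copper-dependent enzymes that are secreted and oxidise lysine side chains of collagen and elastin, which lets these chains join into covalent cross-links. Elastic fibres have an elastin core laid down on microfibrils of fibrillin, and fibulins and microfibril-associated proteins bind the parts together. In the heart these proteins are made largely by fibroblasts, and by smooth muscle cells in vessel walls. Cultures of neonatal cardiomyocytes usually hold some of these cells.

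The deposited values were taken as log2, and differences were tested with limma over all genes, a gene being called at a Benjamini-Hochberg adjusted p under 0.05. Values that were exactly equal on a pair of arrays occurred in 21 of 21 pairs inside 3 sets of arrays (γ+, γ-, and γ+23/24 pooled with control), and in 0 of 45 pairs that crossed sets. The labels name no processing batch, so whether these sets were normalized separately is not known; if they were, set and group cannot be told apart in any comparison but γ+23/24 against control. Array 2 of the γ+ group stood apart from the other γ+ arrays: over all genes the SD of its differences from them was 0.24 log2 each, against 0.12 log2 between γ+ arrays 1 and 3 and 0.12 to 0.16 log2 within each of the other groups. All 12 cardiomyocyte markers looked at, among them Tnnt2, Tnni3, Myh6 and Actn2, passed the filter on low values. So did 10 of 12 fibroblast markers, with Pdgfra, Tcf21, Ddr2 and Thy1 among them, and the other two had no single-gene probe set.

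In the γ+ cultures most of these genes fell. Lox, Loxl1, Loxl2, Eln, Fbn1, Fbln5, Mfap4 and Mfap5 were lower than in control, Fbln1 was higher, and Loxl3 did not pass the test. Of the 10 genes 8 fell and 1 rose, where 38.7% of all genes fell and 26.2% rose by the same test. A fall of at least 1 log2, that is to 50% of control or less, was found for 7 of the 10 and for 5.95% of all genes. Because the 10 genes were chosen with earlier results of these data known, these shares describe them and do not test them. The median change of the 10 genes was -1.31 log2, beside -0.07 log2 for all genes. Without γ+ array 2 the same 9 genes were called, with Lox at -2.02 log2, Mfap4 at -1.69 and Mfap5 at -1.11, and the median of the 10 was -1.25 log2. In that fit 6691 of 10029 genes were called in either direction. In bulk RNA, fewer cells of a type and less RNA per cell cannot be told apart.

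**Figure D1:**
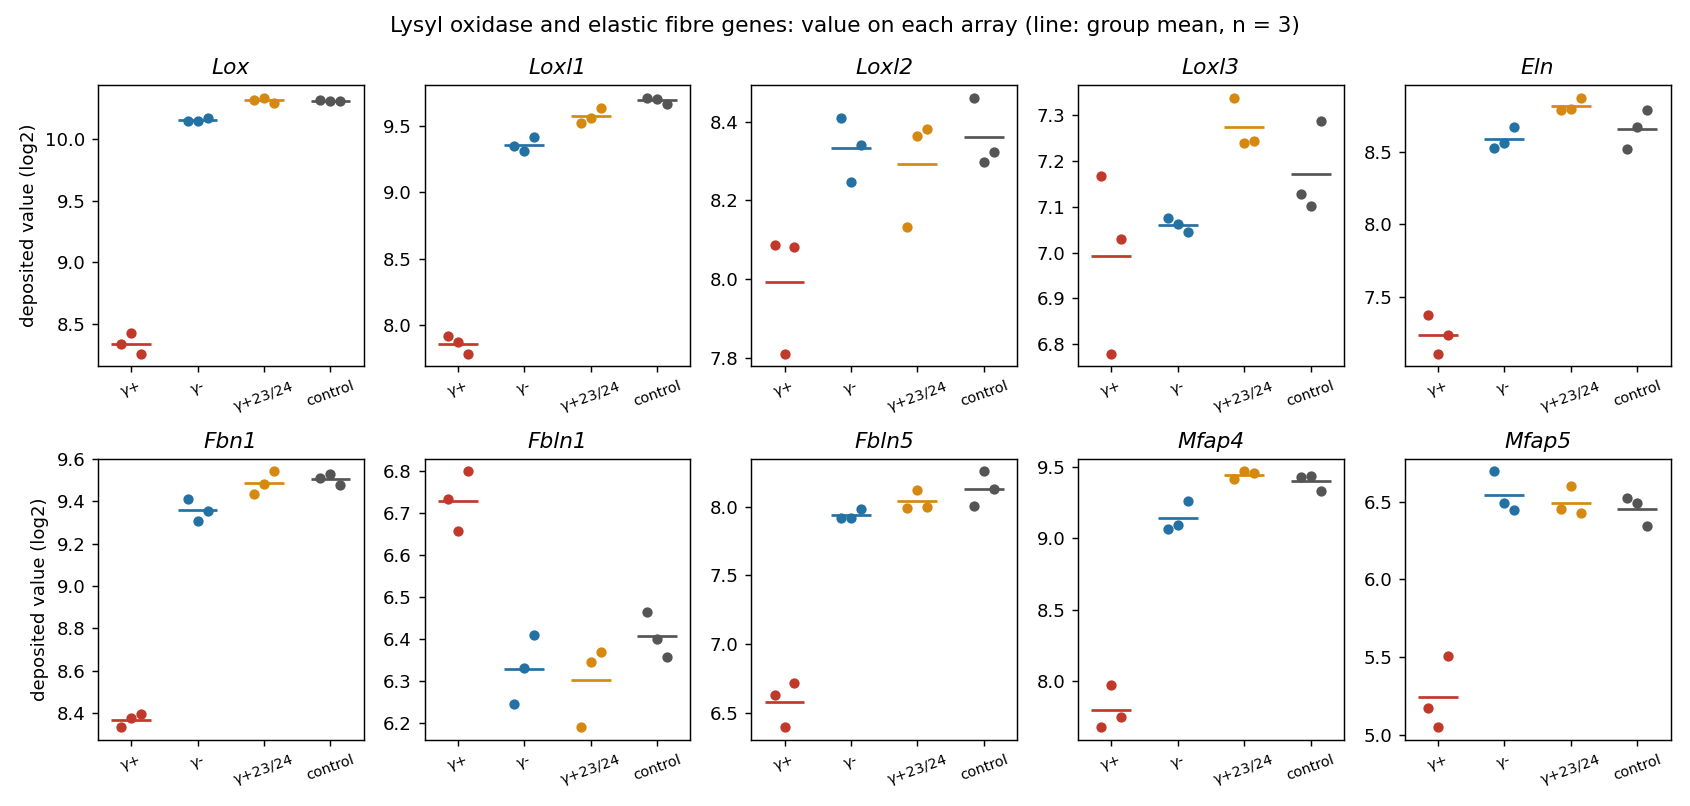
Deposited log2 value (y axis, a separate scale per gene) of the 10 genes on each of the 12 arrays, by group (x axis), with a line at each group mean of 3 arrays. For Lox the γ+ arrays lie at 8.26 to 8.42 and all other arrays at 10.15 to 10.34, and for Fbln1 the γ+ arrays are the highest.

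The founding member of the enzyme family, Lox, had values of 8.33, 8.42 and 8.26 log2 on the γ+ arrays. It had 10.15, 10.15 and 10.18 log2 on the γ- arrays and 10.32, 10.34 and 10.30 log2 on the γ+23/24 arrays, against 10.32, 10.31 and 10.31 log2 on the control arrays. The 3 γ+ arrays were far below all 9 others, and the γ- arrays were just below the γ+23/24 and control arrays without overlap. Against control the γ+ change of Lox was -1.98 ± 0.05 log2 (SE, n = 3 per group, limma adjusted p = 1.99e-14), which left 25.4% of the control level. Among 10025 genes ranked from the largest fall, Lox stood at place 62.

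Loxl1, the family member most closely tied to elastin in mouse studies, followed Lox. Its values were 7.91, 7.87 and 7.78 log2 in the γ+ cultures, 9.35, 9.31 and 9.42 in the γ- cultures and 9.52, 9.56 and 9.64 in the γ+23/24 cultures, against 9.71, 9.70 and 9.67 in the control cultures. The 4 groups did not overlap with each other, in the order γ+, γ-, γ+23/24 and control from low to high. In the γ+ cultures the change was -1.84 ± 0.05 log2 against control (limma adjusted p = 1.19e-13), or 27.9% of the control level.

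Loxl2 and Loxl3 carry scavenger receptor domains that Lox and Loxl1 lack, and their differences from control were small. Loxl2 had 8.09, 7.81 and 8.08 log2 in the γ+ cultures, 8.41, 8.25 and 8.34 in the γ- cultures and 8.13, 8.36 and 8.38 in the γ+23/24 cultures, against 8.46, 8.30 and 8.32 in the control cultures. Its γ+ arrays lay below all others, with array 2 lowest, and the remaining groups overlapped. Loxl2 changed by -0.37 ± 0.09 log2 in the γ+ cultures against control (limma adjusted p = 0.00134). Without γ+ array 2 the difference was -0.28 log2 and still passed (limma adjusted p = 0.0029).

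Loxl3 had 7.17, 6.78 and 7.03 log2 in the γ+ cultures, 7.07, 7.06 and 7.04 in the γ- cultures and 7.34, 7.24 and 7.24 in the γ+23/24 cultures, against 7.13, 7.10 and 7.29 in the control cultures. The γ+ arrays reached from below the γ- arrays to within the control arrays. The difference between γ+ and control was -0.18 log2 (95% interval -0.36 to 0.0018, limma adjusted p = 0.0768), so a fall of that size is neither called nor shown to be absent. It was -0.07 log2 without γ+ array 2 (limma adjusted p = 0.371) and -0.27 log2 without γ+ array 1, where it passed (limma adjusted p = 0.013).

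The 250 bases before the RefSeq start sites (GRCr8) of Loxl1 and Loxl3 are shown because these are the lysyl oxidases with a window in the table used, and in the γ+ cultures one fell far and the other was not called. The Loxl1 window is chr8:67612225-67612474 on the minus strand and the Loxl3 window is chr4:117098108-117098357 on the plus strand. Capitals mark matches, on either strand, to the motifs searched: the MEF2 site, the CArG box bound by serum response factor, TATAAA, the E-box CANNTG, the AP-1 site TGANTCA, the GC box GGGCGG and the SMAD box CAGAC.
Loxl1: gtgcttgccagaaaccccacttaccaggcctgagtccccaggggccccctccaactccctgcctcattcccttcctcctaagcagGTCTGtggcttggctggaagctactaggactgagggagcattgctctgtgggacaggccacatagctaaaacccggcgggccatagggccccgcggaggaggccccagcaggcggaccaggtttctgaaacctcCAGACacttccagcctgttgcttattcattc
Loxl3: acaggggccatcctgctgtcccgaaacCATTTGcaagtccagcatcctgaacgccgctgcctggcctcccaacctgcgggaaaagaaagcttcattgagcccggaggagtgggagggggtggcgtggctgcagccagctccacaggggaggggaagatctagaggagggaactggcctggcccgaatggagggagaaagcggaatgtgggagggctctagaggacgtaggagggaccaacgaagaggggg
The Loxl1 window held 2 SMAD boxes, which begin 165 and 31 bases before the start, and the Loxl3 window held 1 E-box, 223 bases before the start. Neither window held a letter match to the MEF2 site. Of 33469 promoter windows of that length, 42.9% held a SMAD box, 65.5% an E-box and 2.96% a MEF2 site. These matches describe letters and do not show that a factor binds.

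The elastin gene Eln, which encodes the soluble precursor of the elastic core, had 7.37, 7.11 and 7.23 log2 in the γ+ cultures. It had 8.53, 8.56 and 8.67 log2 in the γ- cultures and 8.79, 8.795 and 8.87 in the γ+23/24 cultures, against 8.52, 8.67 and 8.79 in the control cultures. The γ+ arrays were below all others, and the γ- and control arrays overlapped. The change against control was -1.42 ± 0.08 log2 in the γ+ cultures (limma adjusted p = 1.24e-10), to 37.4% of the control level.

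Fbn1 encodes fibrillin-1, the main chain of microfibrils, which is mutated in Marfan syndrome in humans. It had 8.33, 8.37 and 8.39 log2 in the γ+ cultures, 9.41, 9.31 and 9.35 in the γ- cultures and 9.43, 9.48 and 9.54 in the γ+23/24 cultures, against 9.51, 9.53 and 9.47 in the control cultures. The 3 γ+ values were close together and far below the rest. Fbn1 changed by -1.14 ± 0.05 log2 in the γ+ cultures against control (limma adjusted p = 1.27e-11), and 45.5% of the control level was left.

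The fibulins went in opposite directions. Fbln5, which tethers elastin to microfibrils and cells, had 6.63, 6.39 and 6.72 log2 in the γ+ cultures, 7.91, 7.92 and 7.98 in the γ- cultures and 7.99, 8.125 and 7.998 in the γ+23/24 cultures, against 8.01, 8.26 and 8.13 in the control cultures. The γ+ values lay below every other array. Fbln5 changed by -1.55 ± 0.08 log2 in the γ+ cultures against control (limma adjusted p = 1.02e-10), to 34.1% of the control level.

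Fbln1, a fibulin found in elastic fibres and basement membranes, had 6.73, 6.66 and 6.80 log2 in the γ+ cultures, 6.24, 6.33 and 6.41 in the γ- cultures and 6.19, 6.34 and 6.37 in the γ+23/24 cultures, against 6.46, 6.40 and 6.36 in the control cultures. Here the γ+ arrays were the highest of the 12, and the other groups overlapped. Fbln1 rose by 0.32 ± 0.08 log2 in the γ+ cultures against control (limma adjusted p = 0.00136), which is 1.25-fold. The probe set was taken as a whole, so splice forms of Fbln1 were not separated.

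Mfap4, a microfibril-associated glycoprotein that binds elastin and fibrillin, had 7.67, 7.97 and 7.75 log2 in the γ+ cultures, 9.06, 9.09 and 9.26 in the γ- cultures and 9.41, 9.47 and 9.46 in the γ+23/24 cultures, against 9.43, 9.43 and 9.33 in the control cultures. The γ+ arrays were lowest, the γ- arrays lay between, and the γ+23/24 and control arrays overlapped. The γ+ change against control was -1.60 ± 0.07 log2 (limma adjusted p = 1.46e-11), to 32.9% of the control level.

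Mfap5, which encodes the microfibril protein MAGP-2, had 5.17, 5.05 and 5.51 log2 in the γ+ cultures, 6.69, 6.49 and 6.45 in the γ- cultures and 6.46, 6.60 and 6.43 in the γ+23/24 cultures, against 6.53, 6.49 and 6.34 in the control cultures. The γ+ arrays were below all others, and the other groups overlapped. Mfap5 changed by -1.21 ± 0.11 log2 in the γ+ cultures against control (limma adjusted p = 5.48e-08). Its γ+ values were nearest to the filter limit of 4.78 log2 among the 10 genes.

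The window before the start site of Mfap5 (chr4:157399669-157399918, plus strand, GRCr8) is shown to set a microfibril gene that fell beside the lysyl oxidases, with capitals for the same motifs.
Mfap5: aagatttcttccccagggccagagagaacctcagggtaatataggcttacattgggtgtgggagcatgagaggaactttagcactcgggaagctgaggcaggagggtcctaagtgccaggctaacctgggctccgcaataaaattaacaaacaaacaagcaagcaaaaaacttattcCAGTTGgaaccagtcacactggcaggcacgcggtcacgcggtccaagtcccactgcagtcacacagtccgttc
The Mfap5 window held 1 E-box, 73 bases before the start, and no letter match to the MEF2 site. The GC share was 60.4% for Loxl1, 62.4% for Loxl3 and 51.6% for Mfap5, beside a median of 52.0% over the first listed window of each gene symbol. Of the 10 genes 5 had a window in the RefSeq table. For the other two, Fbn1 and Fbln5, the listed start lies inside the annotated gene, and their windows are not described.

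In the γ- cultures the changes against control were small. Loxl1 fell by 0.34 ± 0.05 log2 (SE, n = 3 per group, limma adjusted p = 0.00266), to 79.3% of the control level, and Mfap4 fell by 0.26 ± 0.07 log2 (limma adjusted p = 0.0459), to 83.5%. These 2 of 10 compare with 3.88% of all genes called lower, and 0 of 10 were called higher, beside 3.06% of all genes. Loxl1 passed in every alternative run, with an adjusted p of at most 0.0187. Among the settings that ended the call of Mfap4 were median centring, quantile normalization, the filter at the 60th percentile and no intensity trend (limma adjusted p = 0.0534 to 0.104), and the omission of any of the 3 control arrays or of γ- array 1 or 2 (limma adjusted p = 0.0703 to 0.162).

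The remaining 8 genes were not called in the γ- cultures. Lox differed from control by -0.16 log2 (95% interval -0.26 to -0.05, limma adjusted p = 0.0727), Fbn1 by -0.15 log2 (-0.26 to -0.04, limma adjusted p = 0.0983) and Fbln5 by -0.19 log2 (-0.37 to -0.015, limma adjusted p = 0.179). For Lox, Fbn1 and Fbln5 all γ- arrays nonetheless lay below all control arrays. With the 6 arrays of these groups fitted alone, Lox (limma adjusted p = 0.0143) and Fbn1 (limma adjusted p = 0.0419) passed, and Fbn1 also passed after quantile normalization (limma adjusted p = 0.0476). In all, 6 of the 10 genes had γ- arrays that lay wholly below the control arrays, where 19% of all genes did. Eln (-0.07 log2), Loxl2 (-0.03 log2), Fbln1 (-0.08 log2) and Mfap5 (0.09 log2) had overlapping arrays.

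The γ+23/24 and control arrays belong to the same set by equal values. None of the 10 genes was called by limma, beside 0% of all genes; at an unadjusted p under 0.05 there was 1 of 10, Loxl1, and 8.97% of all genes. Loxl1 was at -0.12 log2 (95% interval -0.24 to -0.0044, limma adjusted p = 0.543), and all 3 of its γ+23/24 arrays lay below the control arrays, which 12.2% of all genes shared. Lox differed by 0.01 log2 (-0.10 to 0.11) and Fbn1 by -0.02 log2 (-0.13 to 0.09). The highest estimate was that of Eln, at 0.16 log2 (-0.01 to 0.33, limma adjusted p = 0.573). Over the 10 genes the 95% intervals reached from -0.27 to 0.33 log2, so none of them included a change of the size that the 7 larger falls showed in the γ+ cultures.

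**Figure D2:**
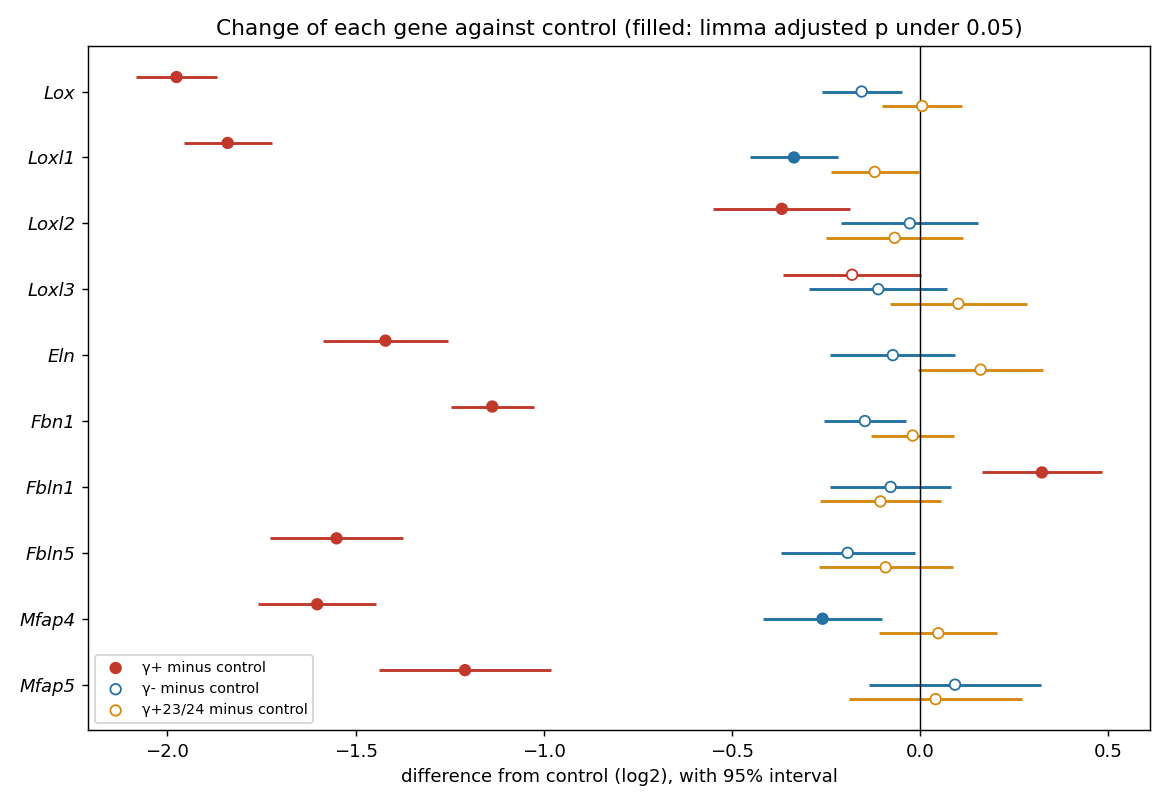
Difference from control in log2 units (x axis) with its 95% interval for each of the 10 genes (rows) in the γ+, γ- and γ+23/24 cultures, n = 3 arrays per group; filled points passed limma at an adjusted p under 0.05. The γ+ points of 7 genes lie beyond -1 log2, Fbln1 alone is to the right of 0 among γ+ points, and the γ- and γ+23/24 points lie between -0.34 and 0.16 log2.

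The virus-treated groups were also compared with each other, which does not involve the untreated cultures. Against the γ- cultures, 8 of the 10 genes were lower in the γ+ cultures (37.5% of all genes) and Fbln1 was higher (26.7% of all genes). Lox was at -1.82 ± 0.05 log2 (SE, n = 3 per group, limma adjusted p = 5.8e-14), Loxl1 at -1.50 ± 0.05 (1.18e-12), Eln at -1.35 ± 0.08 (2.54e-10) and Fbln1 at 0.40 ± 0.08 (2.08e-04). Loxl3, at -0.07 log2 (95% interval -0.25 to 0.11, limma adjusted p = 0.5), was not called, and its estimate was 0.04 log2 without γ+ array 2.

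Against the γ+23/24 cultures, 9 of the 10 genes were lower in the γ+ cultures (37.9% of all genes) and Fbln1 was higher (28% of all genes). Lox was at -1.98 ± 0.05 log2 (SE, n = 3 per group, limma adjusted p = 1.91e-14), Mfap4 at -1.65 ± 0.07 (1.11e-11), Eln at -1.58 ± 0.08 (3.38e-11) and Fbln1 at 0.43 ± 0.08 (1.11e-04). Loxl3 was called here, at -0.28 ± 0.09 log2 (limma adjusted p = 0.00891), and Loxl2 stood at -0.30 ± 0.09 log2 (limma adjusted p = 0.00586). Without γ+ array 2 Loxl3 was at -0.18 log2 and still passed. Under median centring both lost their calls (limma adjusted p = 0.169 for Loxl3 and 0.164 for Loxl2).

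The γ- cultures differed from the γ+23/24 cultures in Mfap4, at -0.31 ± 0.07 log2 (SE, n = 3 per group, limma adjusted p = 0.02), and in Loxl1, at -0.21 ± 0.05 log2 (limma adjusted p = 0.0264). Of all genes 3.94% were called lower in this comparison and 4.16% higher. Both calls were lost under median centring (limma adjusted p = 0.072 for Mfap4 and 0.187 for Loxl1), and Mfap4 was lost without each of γ- arrays 1 and 2 and γ+23/24 arrays 1, 2 and 3 in turn (limma adjusted p = 0.0558 to 0.0979). Loxl1 was lost without γ- array 1 or 2 or γ+23/24 array 2 or 3 (limma adjusted p = 0.0807 to 0.0953). Other settings added calls. Lox, Eln and Fbn1 also passed after quantile normalization (limma adjusted p = 0.0354 to 0.0452). Lox, Loxl3 and Eln also passed with the compared arrays alone (limma adjusted p = 0.00746 to 0.0262), and Lox with no filter (limma adjusted p = 0.0491). The moderated F test over the 4 groups called 10 of 10 genes, beside 70.3% of all genes, with an adjusted p in limma from 1.77e-14 for Lox to 0.0352 for Loxl3. It called 8 under median centring, without Loxl2 and Loxl3, and 9, without Loxl3, when γ+ array 3 or any γ- or γ+23/24 array was left out.

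**Figure D3:**
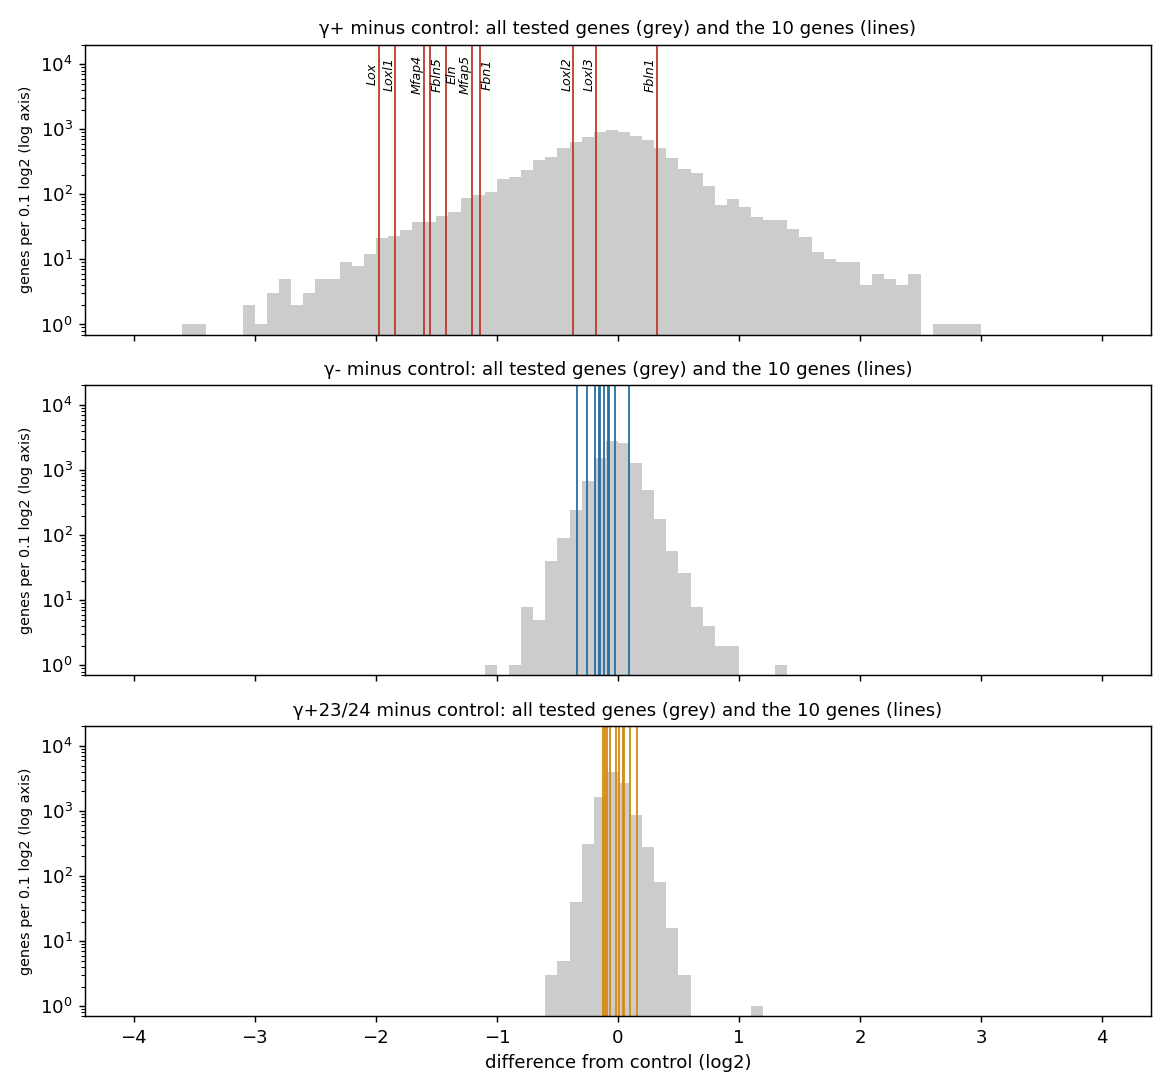
Number of genes per 0.1 log2 of difference from control (y axis, log scale; x axis in log2 units) for all 10025 tested genes in grey, with the 10 genes as vertical lines, in the γ+ (top), γ- (middle) and γ+23/24 (bottom) cultures. In the γ+ cultures Lox stands at place 62 from the largest fall, whereas Loxl2, Loxl3 and Fbln1 lie within the body of the distribution.

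The size of the γ+ fall ordered the 8 genes that passed as Lox, Loxl1, Mfap4, Fbln5, Eln, Mfap5, Fbn1 and Loxl2. The intervals of neighbours in this order overlapped, except between Fbn1 (-1.25 to -1.03 log2) and Loxl2 (-0.55 to -0.19 log2). The genes thus fell into 7 with falls of at least 1 log2 and 3 others. Profiles over the 12 arrays, each set to a control mean of 0, lay closest for Lox and Loxl1 among the lysyl oxidases (root mean square distance 0.14 log2), against 0.82 log2 for Lox and Loxl2 and 0.91 log2 for Lox and Loxl3. Fbln5 and Fbln1 were 0.94 log2 apart.

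Among genes outside the 10, those with the profile most like Lox by the same distance were Efemp1 (0.05 log2), which encodes fibulin-3, Ltbp2 (0.07), a latent TGF-β binding protein of microfibrils, Tnfrsf11b (0.07), which encodes osteoprotegerin, Map1a (0.08), a microtubule-associated protein, and Smyd1 (0.10), a methyltransferase of striated muscle. For Eln they were Krt8, Col1a2, Fhl2, Ptprn and Camk1g, at 0.09 to 0.10 log2. For Fbln1 they were Ube2e3, Nfx1, Dync2h1, Sart1 and Acin1, at 0.05 to 0.07 log2. Fbln1 stood at place 1791 from the largest rise in the γ+ cultures, so many genes rose as far or further.

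Genes that work with these 10 were looked at through a list of 64 partners: other fibulins and fibrillins, latent TGF-β binding proteins, the proteases that activate lysyl oxidase, copper transport genes, collagens and their modifying enzymes, matrix proteases and inhibitors, and TGF-β ligands and receptors. Of the 64, 13 had no single-gene probe set under the name listed (one of these names, Ctgf, is the older name of Ccn2, which was tested as such), 2 (Emilin3 and Vtn) were below the filter and 49 were tested. In the γ+ cultures 42 of the 49 fell against control and 1 rose, with a median of -0.82 log2, beside 38.7% lower, 26.2% higher and a median of -0.07 log2 for all genes. Of the 49, 17 fell by at least 1 log2, beside 5.95% of all genes. The partner list was also chosen with earlier results of these data known, so these shares do not test it. Without γ+ array 2, an omission chosen after the data were seen, 43 of 49 fell and 1 rose, beside 6691 of 10029 genes called in either direction. With all arrays the 6 partner genes not called, named after their values were seen, were Loxl4 (-0.14 log2), Fbn2 (-0.10), Mfap3 (-0.09), Adamtsl5 (-0.10), Tgfb1 (-0.17) and Tgfbr1 (0.03).

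Fbln2, another fibulin of elastic fibres, was at 6.79 ± 0.12 log2 in the γ+ cultures and 8.86 ± 0.105 log2 in the control cultures (SD, n = 3 each), a change of -2.065 ± 0.07 (SE, limma adjusted p = 8.39e-13). Efemp1 changed by -1.93 ± 0.065 and Ltbp2 by -1.96 ± 0.08 log2. Of the fibrillar collagens that lysyl oxidase cross-links, Col3a1 was at 7.74 ± 0.23 log2 in the γ+ cultures and 9.85 ± 0.02 log2 in the control cultures (SD, n = 3 each), and Col1a1 changed by -1.69 ± 0.04 log2. Ccn2, a TGF-β response gene that encodes connective tissue growth factor, changed by -1.96 ± 0.08, the ligand Tgfb3 by -1.76 ± 0.07 and the metalloproteinase inhibitor Timp3 by -1.665 ± 0.07 log2. The riser was Slc31a1, the copper importer of the cell membrane, at 0.16 ± 0.05 log2 (limma adjusted p = 0.00829), named after its value was seen.

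Against the γ- cultures 44 of the 49 partner genes were lower and 1 was higher in the γ+ cultures (37.5% and 26.7% of all genes), and Postn, which encodes the matricellular protein periostin, changed by -1.68 ± 0.07 log2. Against the γ+23/24 cultures 41 were lower and 1 was higher (37.9% and 28% of all genes). In the γ- cultures 1 of 49 partner genes, Col3a1, was lower than control (-0.29 ± 0.08 log2, limma adjusted p = 0.0456), and 0 were higher, beside 3.88% lower and 3.06% higher of all genes. In the γ+23/24 cultures limma called 0 of 49 against control, as of all genes, with 3 at an unadjusted p under 0.05, beside 8.97% of all genes. Between the γ- and γ+23/24 cultures 2 of 49 were called higher and 2 lower, near the shares of 4.16% and 3.94% of all genes. Tgfb3 (0.34 ± 0.07 log2) and the copper chaperone Atox1 (0.29 ± 0.08) were higher in the γ- cultures, and the collagen-degrading proteases Mmp2 (-0.30 ± 0.07) and Mmp14 (-0.17 ± 0.05) were lower.

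Fibroblast markers fell together with these genes, and so did most markers of each other cell type looked at. The cardiomyocyte median was lower still, at -1.13 log2 in the γ+ cultures. In the γ+ cultures 10 of 10 tested fibroblast markers fell, with a median of -0.89 log2 against control, where 38.7% of all genes fell. Pdgfra changed by -1.25 ± 0.08 log2, Tcf21 by -0.82 ± 0.09, Ddr2 by -0.94 ± 0.07 and Thy1 by -1.43 ± 0.06 (SE, n = 3 per group). The summed level of the 10, as 2 raised to each value, was 6287 to 7458 in the γ+ cultures, 10261 to 10583 in the γ- cultures and 10961 to 11345 in the γ+23/24 cultures, against 11185 to 11512 in the control cultures. Vim, which encodes vimentin and is expressed by many cell types, made up 63.8% of the control sum. The other 9 markers summed to 1759 to 2169 in the γ+ cultures, 3653 to 3792 in the γ- cultures and 3940 to 4059 in the γ+23/24 cultures, against 4074 to 4149 in the control cultures. Without γ+ array 2 also 10 of 10 fell (median -0.82 log2), beside 6691 of 10029 genes called in either direction. The part of the fibroblast markers in the change of the lysyl oxidase and elastic fibre genes was not tested.

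Smooth muscle or pericyte markers fell in 10 of 11 cases in the γ+ cultures (median -0.79 log2), and their summed level was 12498 to 12998 in the γ+ cultures, 20859 to 20967 in the γ- cultures and 20936 to 21266 in the γ+23/24 cultures, against 20533 to 21037 in the control cultures. Acta2, smooth muscle actin, made up 56.8% of that control sum, and the other 10 markers summed to 4579 to 4719 in the γ+ cultures, 8823 to 9149 in the γ- cultures and 8885 to 9255 in the γ+23/24 cultures, against 8742 to 9228 in the control cultures. Which cells of the cultures expressed Acta2 and the other markers of this list was not tested. Endothelial markers fell in 9 of 9 cases (median -0.80 log2), macrophage or leukocyte markers in 4 of 6 (median -0.28 log2) and epicardial or mesothelial markers in 4 of 4 (median -0.68 log2). The 12 cardiomyocyte markers fell as well, 12 of 12, with a median of -1.13 log2, and their summed level was 25991 to 27046 in the γ+ cultures, 54684 to 55215 in the γ- cultures and 53637 to 55032 in the γ+23/24 cultures, against 53177 to 54852 in the control cultures. Without γ+ array 2 the falls numbered 11 of 11 smooth muscle or pericyte, 9 of 9 endothelial, 5 of 6 macrophage or leukocyte, 3 of 4 epicardial or mesothelial and 12 of 12 cardiomyocyte markers. The counts with all arrays stand beside the 38.7% of all genes that fell. Those without γ+ array 2 stand beside 6691 of 10029 genes called in either direction. The marker lists were chosen with earlier results of these data known, so these shares do not test them. The lists of macrophage or leukocyte and epicardial or mesothelial markers held only 6 and 4 tested genes. No value in the table was 0, the lowest being 1.09 log2. Of the defining markers Ptprc, Adgre1 and Krt19 were below the filter and Upk3b had no single-gene probe set.

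In the γ- cultures none of the 10 fibroblast markers was called against control (limma, 4 at an unadjusted p under 0.05, which 22.8% of all genes reached), and the median was -0.14 log2, beside -0.13 log2 for the 10 lysyl oxidase and elastic fibre genes. Endothelial markers were called lower in 3 of 9 cases and higher in 1, and macrophage or leukocyte markers lower in 3 of 6. One marker was called in each of the other lists: lower in the smooth muscle or pericyte list and the epicardial or mesothelial list, and higher in the cardiomyocyte list. Of all genes 3.88% were called lower and 3.06% higher in this comparison. In the γ+23/24 cultures limma called no marker of any list against control, and 4 in all had an unadjusted p under 0.05, beside 8.97% of all genes.

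**Figure D4:**
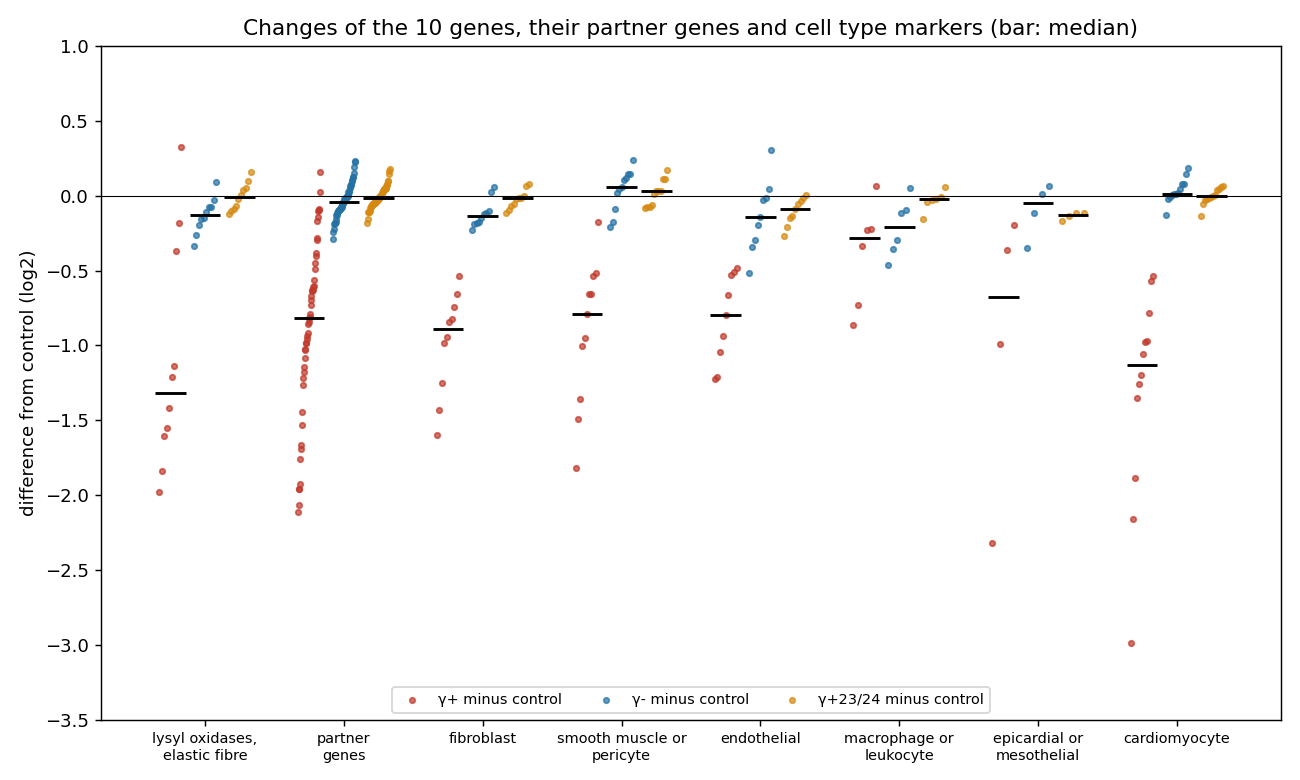
Difference from control in log2 units (y axis) of each tested gene of the 10 lysyl oxidase and elastic fibre genes, their 49 partner genes and 6 lists of cell type markers (x axis), in the γ+, γ- and γ+23/24 cultures, with a bar at each median. The γ+ medians of the 10 genes (-1.31), partner genes (-0.82), fibroblast (-0.89) and cardiomyocyte (-1.13) lists lie well below 0. So do those of the endothelial (-0.80), smooth muscle or pericyte (-0.79) and epicardial or mesothelial (-0.68) lists. The macrophage or leukocyte median is -0.28, and the γ+23/24 medians lie near 0.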

How the data were processed

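The deposited table holds 28826 probe sets on 12 arrays, and its values, as deposited, were taken as log2 from their range (1.09 to 13.89). MAS5 is the tool in the submitters' processing notes, without a version; how the values were normalized and the log base are not stated there. Groups came from the sample titles, and nothing says whether the 3 biological replicates of a group were separate isolations, so p-values measure the spread between these samples. The number of arrays limits the precision.

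A probe table gave 1 symbol for 15209 probe sets, brought up to date through RefSeq (GRCr8) for 15178. Only probe sets whose mean over the arrays exceeded the 40th percentile (4.78 log2) were used, and the single-gene probe set of highest mean stood for each of 10025 genes. Limma 3.58.1 in R 4.3.3 fitted 4 group means with an intensity trend over all 12 arrays (8 residual degrees of freedom); adjustment was by Benjamini-Hochberg within each of 6 comparisons. The code was tested on simulated data. Promoter windows came from RefSeq's GRCr8 table. The 10 genes and all lists were chosen with earlier results of these data known. The text names the 10 genes, up to 8 called partner genes per comparison with the largest non-overlapping changes, the 5 genes nearest in profile to Lox, Eln and Fbln1, and the first 4 fibroblast and cardiomyocyte markers. From the marker lists it also names Vim and Acta2, for their part of the control sums. Of the other lists it further names those defining markers (the first 4 listed) that were not tested.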

Additional observations from a re-analysis of the deposited data

How the results depend on the processing

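The alternatives were median centring, quantile normalization, a low-value filter that was absent or set at the 60th percentile, probe sets averaged per gene, no intensity trend, a replicate block, a fit of the compared arrays alone, and the omission of 1 array at a time. In all of these the γ+ cultures had 9 or 10 called genes against control, 9 against γ- and 8 to 10 against γ+23/24, and the γ+23/24 cultures had 0 against control. Of the γ- cultures against control, the 2 called genes became 1 under median centring, the filter at the 60th percentile, no intensity trend and the replicate block (where Mfap4 had an adjusted p of 0.0595 in limma), 4 with the compared arrays alone, and 1 to 2 without single arrays. Between the γ- and γ+23/24 cultures the 2 called genes became 0 under median centring, 5 under quantile normalization and 5 with the compared arrays alone. They became 3 with no filter, and ran from 0 to 2 without single arrays. The F test called 8 to 10. Outside the changed filters, 10013 to 10030 genes were tested. All-gene calls for γ+ then ran from 5964 to 6691 against control, 5939 to 6647 against γ- and 6058 to 6868 against γ+23/24. By the F test they ran from 6642 to 7566. With no filter they were 8032, 7790, 8310 and 9192 (F test) of 14497 genes. With the filter at the 60th percentile they were 5160, 5146, 5174 and 5446 (F test) of 7389. Over all genes, calls for γ- against control numbered 696, but 436 under median centring, 1363 with no filter, 425 with the filter at the 60th percentile, 1373 with the compared arrays alone and 266 to 343 without single arrays. For γ- against γ+23/24 they numbered 812, but 1641 with no filter, 488 with the filter at the 60th percentile, 1760 with the compared arrays alone and 264 to 526 without single arrays, lowest without γ- array 1. For γ+23/24 against control they numbered 0, but 1 under quantile normalization and without control array 2.

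Same-numbered arrays showed no clear shared deviation: over 18 such pairs the correlation of deviations ran from -0.22 to 0.12, with 1 over 0.1. Whether same-numbered arrays came from the same isolation is not stated. With the replicate block 9 of the 10 genes were called in γ+ against control, 1 in γ- against control, 0 in γ+23/24 against control, 9 in γ+ against γ-, 10 in γ+ against γ+23/24 and 2 in γ- against γ+23/24, and the F test called 10. Of 10025 genes the block called 6401, 514, 0, 6326, 6482 and 628 in that order of comparisons, and 6892 by the F test.

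Signs turned for differences near 0 that were not called. Median centring gave -0.0436 log2 for Lox, -0.0009 for Mfap4 and -0.0078 for Mfap5, and quantile normalization 0.009 for Fbn1, in γ+23/24 against control. Median centring gave 0.0032 log2 for Loxl3 in γ+ against γ-. Without single arrays, in γ- against control Loxl2 ran from -0.0658 to 0.0229 log2. In γ+23/24 against control Mfap5 ran from -0.0138 to 0.0777, Loxl2 from -0.1125 to 0.012, Fbn1 from -0.048 to 0.0063 and Lox from -0.0049 to 0.0169 log2. Loxl3 in γ+ against γ- ran from -0.1566 to 0.0368 log2. In γ- against γ+23/24 Mfap5 ran from -0.0229 to 0.1038, Fbln1 from -0.029 to 0.0687 and Loxl2 from -0.0397 to 0.0848 log2. The cause of these shifts was not tested.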
